A study of Mus musculus with 6 samples.

Results

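The let-7 miRNAs and miR-98-5p were examined in LLC1 cells, an established line from a mouse Lewis lung carcinoma, grown as a 2D monolayer or embedded in laminin rich extracellular matrix (lr-ECM 3D). The family was chosen by name, with earlier results of these data known. It took all mouse miRNAs on the array called let-7 with the suffix 5p together with miR-98-5p. That gave 9 members of 566 mouse miRNAs. All cells were LLC1 cells kept for 48 h in the same DMEM medium with serum. The 3 control cultures grew on plastic (2D), and the 3 lr-ECM 3D cultures grew in 0.5 mg/ml of the matrix mixture Geltrex above agarose, so the plates differed as well as the matrix. Each culture, labelled a biological replicate, gave 100 ng of total RNA, which carried the dye Cy3 on 1 Agilent array of mouse miRNA probes. Array values are listed in the order of replicates 1, 2 and 3. The model is 1 cell line, and an array reads RNA pooled over a whole culture, so that fewer cells with a miRNA and less of it per cell cannot be told apart.

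A miRNA is a short RNA that guides Argonaute proteins to messenger RNAs, mainly through its seed, the bases near its 5′ end. Members of the let-7 family share their seed, are generally abundant in differentiated cells, and are known to repress growth-promoting targets such as Ras genes, Hmga2 and Lin28. Lin28 proteins in turn block the maturation of let-7 precursors, and low let-7 is often described in lung tumours.

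The mature sequences show how alike the members are, which bears on how well probes can separate them. They were matched by name to RefSeq (GRCm38.p6), which held all 9, and are written 5′ to 3′ with the seed, bases 2 to 8, in capitals and with the prefix mmu for mouse, dropped hereafter except where values are first given:

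mmu-let-7a-5p: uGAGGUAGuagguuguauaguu

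mmu-let-7b-5p: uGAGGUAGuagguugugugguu

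mmu-let-7c-5p: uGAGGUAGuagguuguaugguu

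mmu-let-7d-5p: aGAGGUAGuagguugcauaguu

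mmu-let-7e-5p: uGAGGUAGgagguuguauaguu

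mmu-let-7f-5p: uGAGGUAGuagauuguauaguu

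mmu-let-7g-5p: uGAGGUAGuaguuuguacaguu

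mmu-let-7i-5p: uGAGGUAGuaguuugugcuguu

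mmu-miR-98-5p: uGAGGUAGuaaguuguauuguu

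All 9 had the same seed and the same length of 22 bases. A mature sequence was found for 466 mouse miRNAs of the array, and among these the 9 members were the only ones with that seed. The 36 pairs of members differed at 1 to 6 bases, and 4 pairs differed at a single base. Counted from the 5′ end against let-7a-5p, let-7c-5p differed by A19G, let-7e-5p by U9G and let-7f-5p by G12A. The members at 2 differences were let-7b-5p (A17G and A19G), let-7d-5p (U1A and U16C), let-7g-5p (G12U and U18C) and miR-98-5p (G11A and A19U). The most distant from let-7a-5p was let-7i-5p, with G12U, A17G, U18C and A19U. Binding of one paralog to the probe of another was not tested, so each signal is that of a probe and may hold RNA of near relatives.

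RefSeq lists 12 genes for the family on 7 chromosomes, and some lie beside other miRNA genes. Mirlet7a-1, Mirlet7f-1 and Mirlet7d lie together on chromosome 13, Mirlet7b and Mirlet7c-2 on chromosome 15, and Mirlet7f-2 and Mir98 on chromosome X. Mirlet7a-2 lies on chromosome 9 with Mir100 and Mir125b-1, Mirlet7c-1 on chromosome 16 with Mir99a and Mir125b-2, and Mirlet7e on chromosome 17 with Mir99b and Mir125a. Mirlet7g on chromosome 9 and Mirlet7i on chromosome 10 stand apart from these groups. A mature miRNA made from several genes, such as let-7a-5p, let-7c-5p or let-7f-5p, gives a single signal on the array.

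Overall array brightness differed strongly within the 2D group. Averaged over miRNA probes, the unscaled signal was 21.4, 5.03 and 40.4 in 2D and 37.8 to 49.9 in lr-ECM 3D. Each array was therefore multiplied by a factor, 0.447 to 4.43, that set its mean to that of the 2D arrays, and signals are given as log2 of the scaled value. The limit of detection, taken as the lowest log2 signal well above background, was 7.02 on 2D replicate 2 and 3.30 to 4.95 on the other arrays. The 2D arrays shared 1 slide and 1 scan day, and the lr-ECM 3D arrays shared another slide and another scan day. Slide, scan day and culture condition cannot be told apart. Of 19 miRNAs listed as markers of epithelial, blood, muscle, neural, liver or endothelial cells, 2 were well above background on a 2D array and 3 on an lr-ECM 3D array. The 6 epithelial markers, the miR-200 family and miR-205, were well above background on 0 arrays. Both markers seen in 2D were arms of the blood cell miRNA miR-142a, and the third in lr-ECM 3D was the muscle miRNA miR-206-3p, on 1 array. The blood cell markers miR-150-5p, miR-223-3p, miR-144-3p and miR-451a were well above background on 0 arrays. The summed scaled signal of the 6 blood cell markers was 280.0 to 544 in 2D and 259 to 276 in lr-ECM 3D. The brightest of them, miR-142a-3p, had log2 signals of 8.15, 8.95 and 7.96 in 2D and 7.94, 7.91 and 7.85 in lr-ECM 3D. The part of these markers in the values that follow was not tested.

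The let-7 miRNAs were among the brighter miRNAs of these cells in both cultures. In 2D, 8 of the 9 members were well above background on all 3 arrays, and in lr-ECM 3D all 9 were. The exception was miR-98-5p, which passed on 2D replicate 3 alone. The 8 let-7 members ranked between 4 and 41 of the 566 mouse miRNAs on every array, and miR-98-5p between 57 and 119. The 9 members together made up 8.58%, 10.5% and 11.47% of the summed scaled signal of all mouse miRNAs in 2D, and 9.59%, 10.9% and 10.66% in lr-ECM 3D. Averaged over 3 arrays this was 10.2% ± 1.48 (SD) for 2D cells and 10.4% ± 0.698 (SD) for those in matrix, with overlapping arrays. A signal share depends on how well each probe binds and is not a share of molecules. The sums also take in miRNAs that were not well above background, and on 2D replicate 2 only 48 mouse miRNAs were.

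By mean log2 signal over the 6 arrays the members ranked in the order let-7f-5p, let-7a-5p, let-7c-5p, let-7b-5p, let-7d-5p, let-7i-5p, let-7g-5p, let-7e-5p and miR-98-5p. The order is one of probe signals, which differ between probes for reasons besides copy number. From let-7f-5p at 9.26 to let-7e-5p at 7.53 the means spanned 1.72 on the log2 scale, and miR-98-5p followed at a measured mean of 4.82. Of the 8 steps between neighbours, 4 between let-7 members had the same direction on 6 of 6 arrays. These were let-7a-5p above let-7c-5p by 0.54 ± 0.10 (SD over 6 arrays), let-7c-5p above let-7b-5p by 0.32 ± 0.13, let-7b-5p above let-7d-5p by 0.37 ± 0.12, and let-7i-5p above let-7g-5p by 0.45 ± 0.12. Let-7e-5p was also above miR-98-5p on 6 of 6 arrays, but no size is given for this step, since miR-98-5p has only an upper bound on the 2 arrays of 2D where it did not pass the background flag. The other 3 pairs of neighbours did not differ beyond their spread. Let-7f-5p was above let-7a-5p on 4 of 6 arrays with a mean difference of 0.00037 ± 0.05, let-7d-5p was above let-7i-5p on 5 of 6 by 0.02 ± 0.13, and let-7g-5p was above let-7e-5p on 3 of 6 by 0.03 ± 0.22.

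**Figure D1:**
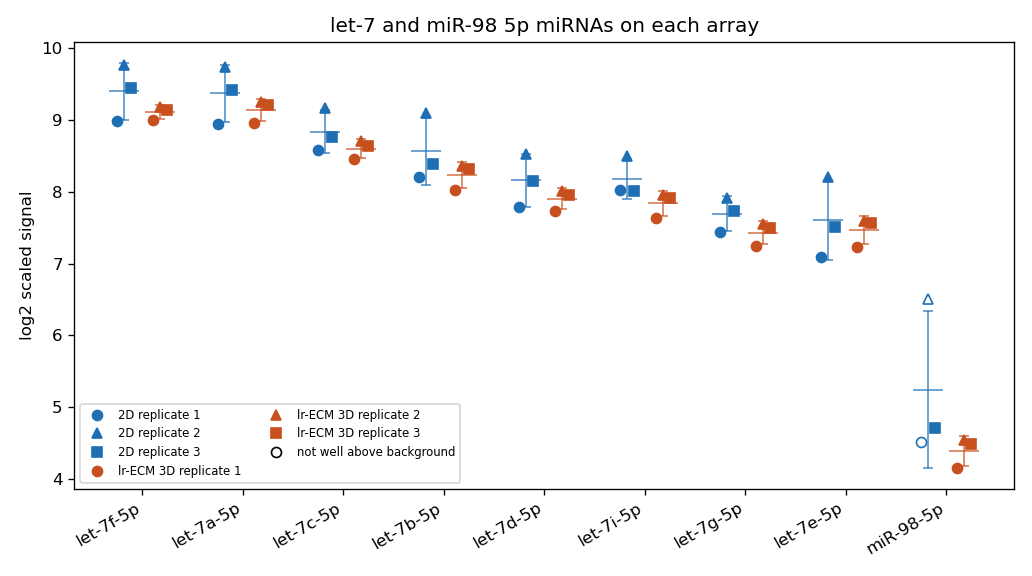
Log2 scaled signal (y axis) of each family member (x axis, ordered by mean signal) on the 3 arrays of 2D (blue) and the 3 of lr-ECM 3D (orange); bars are the mean ± SD and open symbols were not well above background. With this scaling 2D replicate 2 is the highest array for all 9 members, and the lr-ECM 3D arrays lie within or just under the range of the 2D arrays.

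Whether the family differs between culture on plastic and in matrix was examined member by member. No member was called: 0 of the 9 passed limma with an adjusted p under 0.05 and a fold of at least 2, against 11.7% of all 120 tested miRNAs, of which 10.8% were called higher and 0.833% lower in lr-ECM 3D. At an unadjusted p under 0.05 in limma, 0 of the 9 passed, where 24.2% of the tested miRNAs did, and the methods' t-test also called 0, against 14.2%. The family's median log2 change, lr-ECM 3D minus 2D, was -0.26, beside -0.11 over all tested miRNAs. All 9 members lay below 0 with scaling to the mean, while all 9 lay above 0 without scaling and 8 of the 9 did with normexp background correction and with the deposited log2 values. Their adjusted p-values in limma ran from 0.31 to 0.748. The filter on dim miRNAs had let 8 members pass through both groups and miR-98-5p through the lr-ECM 3D arrays alone.

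The brightest pair, let-7f-5p and let-7a-5p, had almost the same signals. The log2 signals of mmu-let-7f-5p were 8.99, 9.77 and 9.45 in 2D, followed in lr-ECM 3D by 8.997, 9.18 and 9.14. Those of mmu-let-7a-5p were 8.94, 9.74 and 9.43 in 2D and 8.96, 9.25 and 9.21 in lr-ECM 3D. In both cases the lr-ECM 3D arrays fell inside the 2D range. The change of let-7f-5p was -0.30 with an SE of 0.22 and a 95% interval of -0.86 to 0.26, and limma gave an adjusted p of 0.407. Let-7a-5p changed by -0.23 with an SE of 0.24, an interval of -0.82 to 0.36 and an adjusted p of 0.517 in limma.

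Let-7c-5p and let-7b-5p, which both have a gene on chromosome 15, let-7c-5p having another on chromosome 16, came next in signal. Let-7c-5p had log2 signals of 8.58, 9.17 and 8.77 in 2D and 8.45, 8.72 and 8.64 in lr-ECM 3D. Let-7b-5p had 8.21, 9.10 and 8.39 in 2D and 8.03, 8.37 and 8.33 in lr-ECM 3D. For each of them lr-ECM 3D replicate 1 was the lowest array and the groups overlapped. The changes were -0.23 (95% interval -0.71 to 0.24) for let-7c-5p and -0.33 (-0.99 to 0.34) for let-7b-5p, both with an adjusted p of 0.436 in limma.

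Let-7d-5p, the member that differs at the first base (U1A), had log2 signals of 7.79, 8.53 and 8.16 in 2D and 7.74, 8.01 and 7.96 in lr-ECM 3D. Its groups overlapped, with a change of -0.26 (95% interval -0.80 to 0.29) and an adjusted p of 0.439 in limma. Let-7g-5p had 7.44, 7.92 and 7.73 in 2D and 7.25, 7.55 and 7.50 in lr-ECM 3D. It changed by -0.26 (-0.70 to 0.18), with an adjusted p of 0.353 in limma, and its groups overlapped as well.

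Let-7i-5p was the only member whose groups did not overlap. Its log2 signals were 8.03, 8.50 and 8.01 in 2D and 7.64, 7.96 and 7.92 in lr-ECM 3D. All 3 lr-ECM 3D arrays were thus under the lowest 2D array with scaling to the mean, while the change was above 0 without scaling, with normexp and in the deposited log2 table. Among all tested miRNAs 42.5% had groups that did not overlap in either direction and 22.5% were lower in this way, beside 1 of the 9 members. Among those well above background on all 6 arrays 37.5% were lower in this way, beside 1 of the 8 members there. With so few members these counts are not read further. The change of let-7i-5p was -0.34 with an SE of 0.19, a 95% interval of -0.82 to 0.13 and an adjusted p of 0.31 in limma.

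Let-7e-5p had the change nearest to 0. Its log2 signals were 7.10, 8.20 and 7.51 in 2D and 7.24, 7.59 and 7.57 in lr-ECM 3D. The 2D arrays spread widely, with an SD of 0.56 against 0.20 in lr-ECM 3D, and enclosed all 3 lr-ECM 3D arrays. The change was -0.14 (95% interval -0.91 to 0.63) with an adjusted p of 0.748 in limma, and it was 0.16 without 2D replicate 2.

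For the 8 let-7 members every 95% interval lay within -1 to 1, so changes of 2-fold or more fell outside these intervals under the scaling to the mean. The intervals cover the spread between arrays and neither the choice of scaling nor the slide. The spread itself came mostly from the 2D arrays: all 9 members had a larger SD in 2D, 0.24 to 0.56 for the 8 let-7 members against 0.10 to 0.20 in lr-ECM 3D. All 9 were highest on 2D replicate 2, the array with the lowest raw brightness and the largest factor. Without that array the 9 changes lay between -0.22 and 0.16, and 0 of the 9 were called, against 26.4% of the miRNAs tested without it.

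The dimmest member, encoded on chromosome X, was well above background on 4 of the 6 arrays. The log2 signals of mmu-miR-98-5p were 4.52, 6.50 and 4.71 in 2D and 4.15, 4.54 and 4.49 in lr-ECM 3D. On 2D replicates 1 and 2 these signals were not well above background, with limits of 4.95 and 7.02. Before scaling its signal was 22.04, 20.5 and 47.3 in 2D, and 38.1 to 40.4 in lr-ECM 3D. Thus on 2D replicate 2 it was nearly as bright as on 2D replicate 1, although let-7a-5p was at 193 on the former and 474 on the latter. The change was -0.85 with an SE of 0.56, a 95% interval of -2.24 to 0.54 and an adjusted p of 0.35 in limma. It was -0.22 without 2D replicate 2. With quantile normalization the change was -1.51 and limma gave an adjusted p of 0.0404, which was the single call of a member under the alternatives run, in a setting where 19.8% of the miRNAs tested were called and 4.13% were called lower. Each of these changes of miR-98-5p uses 2D signals that are only upper bounds, so none gives the size of a change, and the call has the same limit.

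**Figure D2:**
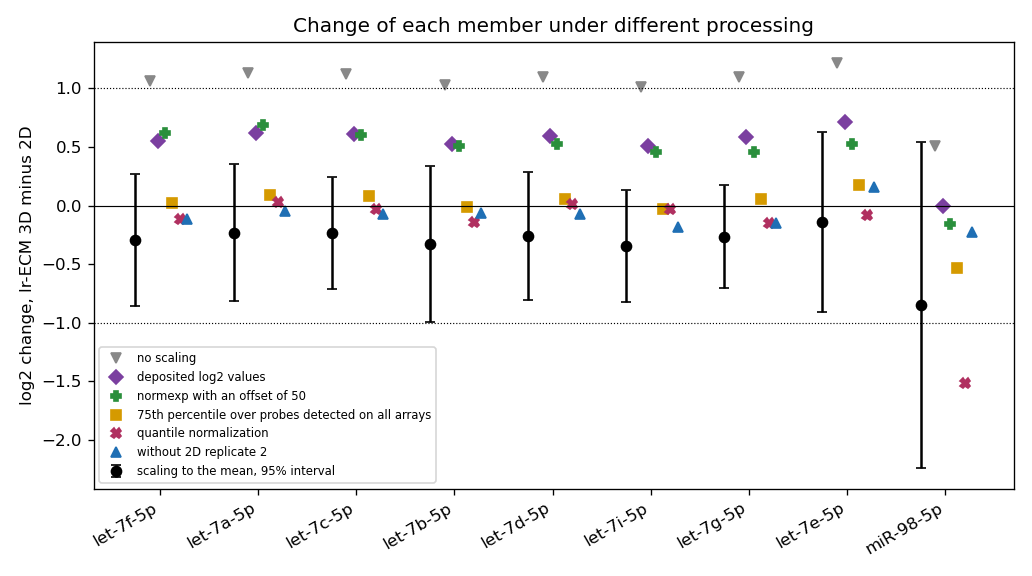
Log2 change, lr-ECM 3D minus 2D (y axis), of each member (x axis) with scaling to the mean and its 95% interval (black) and under 6 alternatives (coloured); dotted lines mark a fold of 2. All 9 members lie below 0 with scaling to the mean and all 9 above 0 without scaling, and without 2D replicate 2 they lie between -0.22 and 0.16.

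Since the sign of the change depended on the scaling, the family was set beside other miRNAs of the same arrays. There were 40 other miRNAs well above background on all 6 arrays. Their median log2 change was -0.29, and that of the 8 let-7 members was -0.26, a difference of 0.03. Scaling by any factor per array leaves this difference as it is, while the median of all tested miRNAs moved from -0.11 to 1.24 without scaling. Over all alternatives run with limma the difference between the 8 let-7 members and the others lay between -0.04 and 0.12. With normexp, where the 8 members changed by 0.45 to 0.69, the other miRNAs had a median of 0.45, and with the deposited values, where the 8 changed by 0.51 to 0.71, it was 0.58. Of these 40 miRNAs 0 were called by limma, 3 had an unadjusted p under 0.05, and 38 lay below 0 with scaling to the mean.

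**Figure D3:**
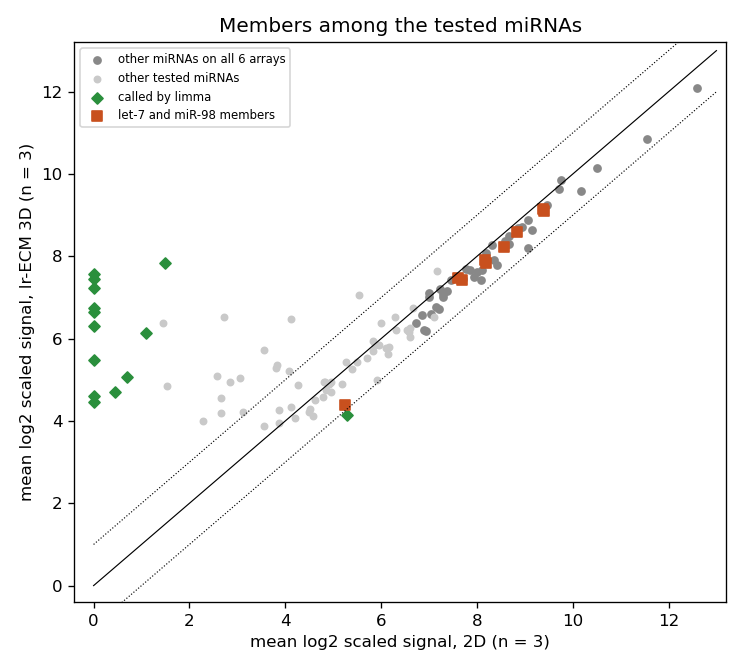
Mean log2 scaled signal in lr-ECM 3D (y axis) against 2D (x axis) for the 120 tested miRNAs, with n = 3 arrays per axis; squares are the 9 members, diamonds the 14 miRNAs called by limma, and dotted lines mark a fold of 2. The 8 let-7 members lie among the other miRNAs seen on all 6 arrays, a little under the line of equal signal with this scaling, while miR-98-5p, not seen on all 6, lies lower at 5.24 in 2D and 4.39 in lr-ECM 3D, and 0 of the 9 is a diamond.

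Levels within the family were then compared on each array, which removes the array's factor. For each member the mean log2 signal of the other let-7 members of the array was subtracted, leaving miR-98-5p out of that mean. Let-7a-5p stood at 1.02 ± 0.11 (SD, n = 3) in 2D and 1.06 ± 0.0038 in lr-ECM 3D, and let-7g-5p at -0.89 ± 0.16 and -0.90 ± 0.0063. Among the 8 let-7 members the differences between the groups ran from -0.09 for let-7i-5p to 0.14 for let-7e-5p. The groups separated for 0 of the 8. Relative values were not computed for other miRNAs, so this count has no share to be read against. Let-7e-5p had relative values of -1.18, -0.76 and -1.05 in 2D, and in lr-ECM 3D the values were -0.91, -0.85 and -0.82. Let-7i-5p, separate on the scaled signal, overlapped here, with -0.12, -0.41 and -0.48 in 2D and -0.45, -0.42 and -0.42 in lr-ECM 3D. The relative value of miR-98-5p was -3.62, -2.36 and -3.72 in 2D and -3.89, -3.79 and -3.80 in lr-ECM 3D, so that all lr-ECM 3D arrays were lower, and its signal passed the background flag on 1 of those 2D arrays. These comparisons are descriptions with no test.

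**Figure D4:**
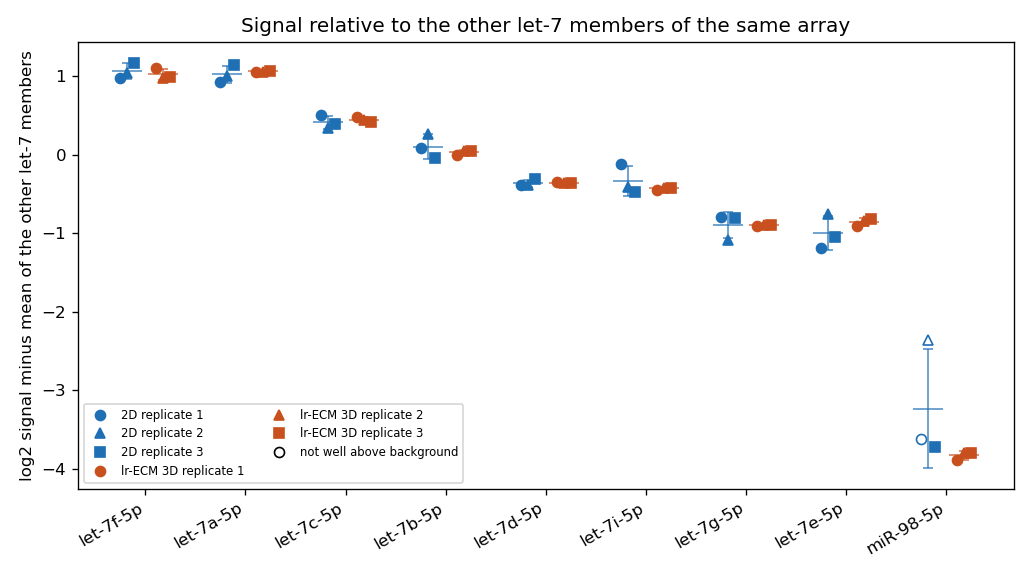
Log2 signal of each member minus the mean of the other let-7 members on the same array (y axis), by member (x axis), with symbols and bars as for the plot of scaled signals. Let-7a-5p and let-7f-5p lead in both cultures and miR-98-5p is last, and the lr-ECM 3D arrays lie close together, with a difference between groups of 0.14 or less in size for the 8 let-7 members.

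The values were also read at the level of probes and spots. Every member had 2 probes with 10 spots each, and the brighter probe represented it. For the 8 let-7 members the spots of this representing probe had a coefficient of variation of 1.29% to 10.96% within an array, with 7 to 10 spots used, and for miR-98-5p of 8.92% to 23.5%. For the dimmer probes the ranges were 1.84% to 14.7% and 7.90% to 22.2%. The probes of a member differed in their log2 change by 0.14 or less for the 8 let-7 members and by 0.22 for miR-98-5p, whose probes changed by -0.85 and -1.07. The largest gap among the let-7 members was that of let-7f-5p, with -0.30 and -0.44. With the mean of both probes let-7a-5p was first and let-7f-5p was second on all 6 arrays, let-7i-5p stood above let-7d-5p on all 6, and let-7b-5p stood above let-7c-5p on 2D replicate 2, so these ranks depend on the probe chosen.

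Raw signals allowed a comparison at similar brightness, because 2D replicate 3 had a mean signal of 40.4, inside the range of the lr-ECM 3D arrays. Let-7a-5p had a raw signal of 1248 on 2D replicate 3 and of 1115, 1059 and 1007 in lr-ECM 3D. Let-7f-5p had 1271 against 1144, 1011 and 961, and let-7e-5p had 330.2 against 338, 334 and 322. The summed raw signal of the 9 members was 5664 on 2D replicate 3 against 5271, 4954 and 4692 in lr-ECM 3D. It was 2398 and 951 on 2D replicates 1 and 2. A single 2D array has no replicate check, and these values are given side by side only.

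The passenger strands, the opposite arms of the same hairpins that are usually degraded, were close to or below background. The array held 7 of them, let-7a-1-3p, let-7b-3p, let-7c-1-3p, let-7d-3p, let-7f-1-3p, let-7g-3p and let-7i-3p. On the 2D arrays 0 of the 7 were well above background, and on the lr-ECM 3D arrays only let-7b-3p was, on 1 array. Its raw signal was 0.0208, 8.49 and -1.88 in 2D, compared with 26.3, 10.997 and 11.4 in lr-ECM 3D. None of the 7 passed the filter, so no fold is given.

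The miRNAs encoded next to let-7 genes were read from a fixed list of 5. Of these 4 were tested and 0 were called by limma, with 11.7% called over all tested miRNAs. At an unadjusted p under 0.05 in limma 0 of the 4 passed, where 24.2% of all tested miRNAs did. On chromosome 17, miR-99b-5p changed by 0.09 and miR-125a-5p by -0.0035, beside -0.14 for let-7e-5p from the same locus, with adjusted p of 0.704 and 0.992 in limma. MiR-99b-5p passed the background flag on 2 arrays in 2D and 3 in lr-ECM 3D. MiR-125b-5p, encoded near Mirlet7a-2 and Mirlet7c-1 and among the brightest of the array, changed by -0.36 with an adjusted p of 0.31 in limma. Its log2 signals were 10.3, 10.9 and 10.3 in 2D and 10.1, 10.2 and 10.2 in lr-ECM 3D, so its groups did not overlap. The groups were lower without overlap for 22.5% of all tested miRNAs and 37.5% of those well above background on all 6 arrays. MiR-100-5p changed by -0.12 with an adjusted p of 0.771 in limma and passed the background flag on 1 array in 2D. MiR-99a-5p was well above background on 0 of the 6 arrays. All 5 values refer to scaling to the mean.

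The array also held probes for miRNAs with a seed near that of let-7. Their sequences are shown for comparison with the members, again with bases 2 to 8 in capitals:

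miR-196a-5p: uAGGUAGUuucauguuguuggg

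miR-196b-5p: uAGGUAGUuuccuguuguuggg

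miR-202-3p: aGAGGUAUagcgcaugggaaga

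MiR-196a-5p and miR-196b-5p were well above background on 0 of the 6 arrays, with raw signals of 5.18 to 13.5 and 6.90 to 15.4, while let-7a-5p reached 193 or more on the same arrays. MiR-202-3p passed the background flag on 2 arrays in 2D and 3 in lr-ECM 3D. It had raw signals of 43.7, 3.04 and 70.2 in 2D and 57.8, 48.1 and 46.8 in lr-ECM 3D, and changed by -0.09, for which limma gave an adjusted p of 0.896.

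The miRNAs whose signals ran most like the mean of the family over the 6 arrays were miR-151-5p, miR-199a-3p, miR-322-5p, miR-130a-3p and miR-125b-5p. Likeness was the root mean square difference between log2 signals that had each been centred on their own mean, and it was 0.0919 for miR-151-5p and 0.103 for the last of these, against a median of 0.325 over the 111 other tested miRNAs. The members themselves lay at 0.0399 to 0.134, apart from miR-98-5p at 0.469. Each member is part of the mean it was measured against, so these values are not comparable with those of the other miRNAs. The family's profile was -0.22, 0.65 and 0.06 in 2D, then -0.35, -0.05 and -0.09 in lr-ECM 3D, with its highest point on 2D replicate 2. On that array miR-151-5p, at 6.16, was under the limit of 7.02 and not well above background, which bounds its likeness. The 5 miRNAs changed by -0.51 to -0.18 with scaling to the mean, and 0 of them were called by limma.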

How the data were processed

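The authors extracted the images with Agilent Feature Extraction 10.7.3.1, and the deposited scanner files hold linear spot intensities, background subtracted and without scaling between arrays. Other columns deposited are flags for detection, outliers and saturation. The deposited series table holds log2 values that the authors scaled in GeneSpring to the mean of the control samples, and its columns share 1 mean on the log2 scale. Groups came from the sample titles. Control spots and 190 to 369 outlier spots per array were left out, and 0 spots were saturated. Spots were averaged to 1712 probes. Each array's linear mean was set to that of the 2D arrays, which is 1 reading of the study's methods. The deposited table has equal log2 means instead, and in it the family's median change was 0.58 in place of -0.26. Signals were floored at 1, and a miRNA took its brightest probe. A probe with at least 50% of its spots flagged counted as well above background.

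MiRNAs detected on all arrays of a group (120) entered limma (version 3.58.1, under R 4.3.3), two-sided with Benjamini-Hochberg adjustment, after tests on simulated data. Members, lists and tests were chosen with earlier results of these data known. Named miRNAs were the members, their passenger strands, 5 neighbours, 3 near-seed miRNAs and the 5 most alike. Alternatives covered scaling, background correction, probe summary, floor, filter, deposited values, tests, the replicate block and each array left out. Normexp used the spots' median pixels. A block for slide could not be fitted, since 0 of the 2 slides held both groups. The number of arrays limits the precision.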

Additional observations from a re-analysis of the deposited data

How the results depend on the processing

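The members called stayed at 0 under every alternative run except quantile normalization, where the count was 1 (miR-98-5p, at -1.51). Directions did not hold. The family's median of -0.26 became 1.09 for unscaled signals, 0.52 after normexp and 0.58 in the authors' log2 table. In the order let-7a, b, c, d, e, f, g and i, the changes were 1.13, 1.03, 1.12, 1.10, 1.22, 1.06, 1.09 and 1.01 without scaling (miR-98-5p 0.51), 0.69, 0.51, 0.60, 0.52, 0.53, 0.62, 0.46 and 0.45 with normexp, and 0.62, 0.52, 0.61, 0.59, 0.71, 0.55, 0.58 and 0.51 with the deposited values. With the 75th percentile over detected probes, let-7a, c, d, e, f and g turned to 0.086, 0.084, 0.060, 0.18, 0.021 and 0.053. With the median over detected miRNAs, let-7a, c and e turned to 0.021, 0.018 and 0.11. With quantile normalization let-7a and d turned to 0.028 and 0.0099, and let-7e turned to 0.0078 with the 75th percentile over all probes and 0.055 with total gene signal. With single arrays left out, let-7e ranged from -0.39 to 0.16, and the family's median from -0.44 to -0.07. In all, 39 of 206 member values reversed. The 206 include the other floor, the other filters, the other tests and the replicate block. Those settings left every member's log2 change as it was and could not reverse it, so 39 of 206 is no rate of stability. The cause of the reversals was not tested.

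Whether the replicate numbers pair the samples cannot be told from 3 arrays per group. Deviations of same-numbered arrays correlated at -0.32, -0.37 and 0.16, and those of differently numbered arrays at -0.32 to 0.35. With the number as a block 0 members were called, while calls over all miRNAs went from 14 to 12. In this balanced design a block leaves each log2 change as it is, so the median of -0.26 could not move. Calls over all miRNAs ranged from 0 with the filter on all 6 arrays and 11 with normexp to 32 without 2D replicate 2 or without a filter. The dimness of 2D replicate 2, with its limit at 7.02, bounds what can be said of miR-98-5p.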
